A study of Sus scrofa with 45 samples.

Results

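The 12 arrays described here hold whole blood of pigs fed the control diet. They were chosen by their titles, which read whole blood, control and 10, 19 or 27 weeks, and they are 12 of the 45 arrays of the series, with 4 arrays at each time. The study kept male Clawn miniature pigs, a small Japanese breed used as a large-animal model, free of specific pathogens and in single cages from 12 weeks of age. A week is a week of feeding, so the pigs were 22, 31 and 39 weeks old at the times compared, an age range in which young boars grow and mature. The control diet was standard dry feed; the study's other pigs ate a diet rich in fat and cholesterol (HFCD) or the same with added sucrose (HFCSD). Blood was drawn from the superior vena cava into PAXgene tubes, which lyse the cells and preserve the RNA at collection. The methods name 5 pigs per diet. The titles number the males of each week from 1 to 4 and do not say whether a number stands for the same pig in every week. If the males of a week are separate pigs, 12 arrays from 5 pigs mean that some gave blood in more than 1 week, and the tests, which have no term for the animal, treat the weeks as independent.

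Each array carried 43603 porcine probes of 60 bases, read in 1 colour, and levels are given as log2 of the normalized intensity. A symbol could be given to 2943 probes, which cover 1933 genes, and 40660 probes had none. Spots well above background made up 43.3, 43.4, 35.4 and 41.7% on the 10-week arrays, 42, 41.7, 43.9 and 51.0% on the 19-week arrays and 50.2, 49.4, 46.5 and 38.9% on the 27-week arrays. The dimmest arrays were thus replicate 3 at 10 weeks and replicate 4 at 27 weeks, and the means of the weeks, 40.9, 44.6 and 46.2%, gave no difference past an exact test (F 1.48, exact permutation p 0.277). Net signal on the negative control spots averaged 31.3, 25.8 and 21.1 at 10, 19 and 27 weeks, a difference past the same test (F 14.6, exact permutation p 0.000173, the smallest that 34650 assignments can give). No spot was saturated. The number of arrays, 4 a week, limits the precision of every value given.

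Scan day followed the week. All arrays at 10 weeks were scanned on day 1, those at 19 weeks on day 2 except replicate 1 on day 3, and all at 27 weeks on day 4, and no slide held control arrays of more than 1 week. In each comparison of weeks the effects of age, of scan day and of slide therefore cannot be told apart. Arrays of the same week were more alike than arrays of different weeks: the mean correlation was 0.969, 0.956 and 0.961 within 10, 19 and 27 weeks, against 0.945 between 10 and 19 weeks, 0.95 between 19 and 27 weeks and 0.935 between 10 and 27 weeks. On Fisher's z scale the difference was 0.238 (exact permutation test, one-sided p 0.000519, smallest possible 0.000173). For single pairs of weeks the exact one-sided p was 0.0286 for 10 and 19 weeks, 0.0857 for 19 and 27 weeks and 0.0286 for 10 and 27 weeks (0.0429, 0.0857 and 0.0429 adjusted over the 3 pairs; smallest possible 0.0286). Replicate 1 at 19 weeks had a mean correlation of 0.934 with the other arrays of its week, where the other 3 had 0.961 to 0.966, and it reached 0.958 with replicate 4 at 27 weeks. That array in turn had 0.943 with its own week, where the other 3 had 0.964 to 0.971.

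**Figure D1:**
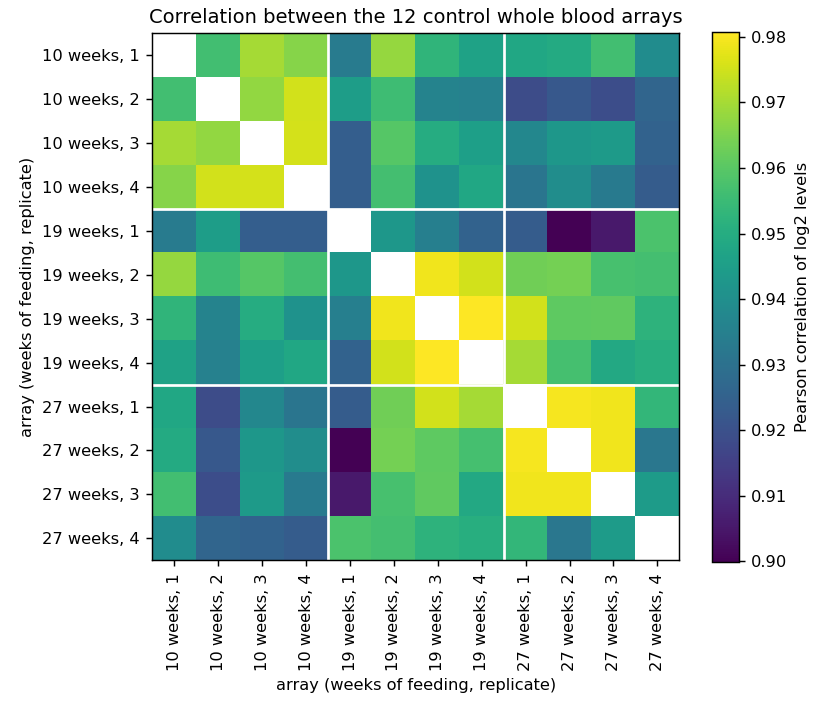
Pearson correlation of log2 levels between each pair of the 12 control whole blood arrays, in order of week and replicate, with white lines between weeks. The blocks along the diagonal are the arrays of 1 week; replicate 1 at 19 weeks (mean 0.934 with its own week) and replicate 4 at 27 weeks (0.943) stand apart from their blocks.

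Base composition of the probes moved with the week as well. Among all 17138 probes tested between 27 and 10 weeks, the median change was 0.36 for probes with at most 35% G and C bases, 0.25 for those with 36.7 to 38.3%, −0.07 for those with 40 to 43.3% and −0.40 for those with 45% or more. Between 19 and 10 weeks the corresponding medians ran from 0.19 for the lowest group to −0.17 for the highest, and between 27 and 19 weeks from 0.17 to −0.11. Probes that rose from 10 to 27 weeks had a median of 36.7% G and C, those that fell 45%, and all probes tested 38.3%. Part of this difference is in the single arrays: at 55% G and C or more the shift from the mean of the arrays was 0.29, 0.73, 0.43 and 0.54 at 10 weeks and −0.57, −0.36, −0.59 and −0.46 at 27 weeks. The shift was taken as a median within bins of G and C content. Probes from 45% to under 55% shared 1 bin, as did those at 55% or more and those at 35% or less. Values with this shift removed from each array are given for genes whose call or size they change, a setting chosen after the data had been seen, and the cause of the shift was not tested.

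**Figure D2:**
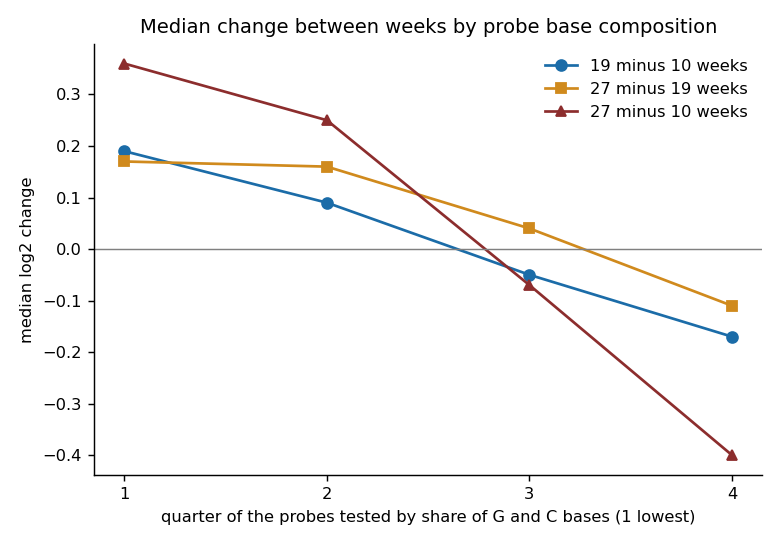
Median log2 change of the probes tested in each comparison of weeks (vertical axis), with the probes divided into 4 groups by their share of G and C bases (horizontal axis, 1 lowest). In all 3 comparisons the median declines from the first group to the last, from 0.36 to −0.40 for 27 minus 10 weeks.

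The label whole blood was compared with genes that define its cells. PPBP of platelets, CD3D and CD3E of T cells and CD14 of monocytes were well above background on all 12 arrays, and PRF1 of cytotoxic cells on 9. A probe described as platelet factor 4 was well above background on all 12 arrays, whereas a probe described as haemoglobin alpha was so on none. HBB, HBA, ALAS2, S100A8, S100A9, CSF3R, NKG7, CD79A, CD79B, MS4A1 and CSF1R had no named probe, so red cells and neutrophils could not be checked by their usual markers. Of genes that define other tissues, CKM of muscle and ALB of liver were well above background on no array, ADIPOQ of fat on 1, MYH1 on 2, and APOA1 and FABP4 on 6. DES, a filament protein of muscle, was the exception at 12 of 12.

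Blood of a growing animal is a shifting mixture. Lymphocytes, granulocytes, monocytes, platelets and immature red cells all add RNA to the tube, and their shares move as the immune system meets its surroundings and as the marrow and thymus age. In a bulk sample, fewer cells of a type and less RNA per cell cannot be told apart. The blood cell counts that the study also made were not used here.

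From 10 to 19 weeks of feeding, the question is what differs in the blood of pigs on standard feed between these ages, whose arrays were also scanned on different days. LY96, TNFRSF1B and SLPI rose and ARF6, FYN and ABCB1 fell, each without overlap between the weeks. limma called 1596 of 16911 probes at an adjusted p under 0.05 (9.44%), of which 563 rose (3.33%) and 1033 fell (6.11%), and 4290 had an unadjusted p under 0.05. The groups did not overlap in 1472 of the 1596, the median size of change among the called probes was 1.24, and the median change of all probes tested was 0.04. Among probes with a symbol, 48 rose and 203 fell of 1640 tested.

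LY96, which holds bacterial endotoxin for the receptor TLR4, was at 9.66, 7.81, 8.25 and 7.43 (10 weeks), 10.64, 10.34, 10.48 and 9.77 (19 weeks) and 10.60, 9.90, 11.24 and 11.47 (27 weeks). All 4 values at 19 weeks lay above all 4 at 10 weeks, a change of 2.02 ± 0.45 (SE) or 4.05-fold (adjusted p 0.0173). TNFRSF1B, the second receptor for tumour necrosis factor, read 5.84, 4.77, 5.0 and 4.79 (10 weeks), 7.09, 7.28, 7.81 and 6.73 (19 weeks) and 7.82, 7.88, 6.59 and 5.83 (27 weeks). It rose by 2.13 ± 0.43 from 10 to 19 weeks, 4.37-fold, without overlap (adjusted p 0.0125). The smallest TNFRSF1B change over the alternative settings was 1.22. NR4A3, a nuclear receptor induced early after stimulation, stood at 5.52, 5.93, 3.94 and 4.37 at 10 weeks, 3 of them well above background, and at 7.30, 6.83, 6.10 and 6.99 at 19 weeks. The smallest NR4A3 change over the alternative settings was 0.85 in place of 1.87. Under the main processing NR4A3 rose at least 3.1-fold (adjusted p 0.0175). For such a bound the mean of the higher week is set against the mean of the lower week after each lower value is raised to the faintest level that counts as well above background on its array, and it is given wherever a week was not well above background on every array. SLPI, an inhibitor of neutrophil elastase, gave 8.52, 7.98, 7.36 and 8.64 (10 weeks), 9.97, 9.5, 9.75 and 9.73 (19 weeks) and 10.77, 9.36, 9.24 and 9.49 (27 weeks), a rise of 3.05-fold by 19 weeks (1.61 ± 0.35, adjusted p 0.0156) with no overlap.

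Further rises without overlap were those of UBE2D1, a ubiquitin-conjugating enzyme (3.06-fold, adjusted p 0.0223), HHEX, a homeobox factor of blood progenitors (2.62-fold, 0.0122), and SGMS1, which makes sphingomyelin (2.44-fold, 0.0208). Both probes that the files label as beta-defensin 2, an antimicrobial peptide, rose, PBD-2 by 2.56-fold (adjusted p 0.0189) and DEFB1 by 2.54-fold (0.0216). CCL3L1, a chemokine of activated myeloid cells, rose 2.4-fold (0.045), but passed the threshold in only 4 of 12 fits that left out 1 array (adjusted p up to 0.14). IL18, a cytokine that drives interferon gamma, went from 9.07, 7.01, 7.26 and 6.90 to 10.25, 9.27, 10.32 and 8.73, a rise of 4.24-fold with overlap (adjusted p 0.0207). Of the probes without a symbol, A_72_P114516 and A_72_P041401 rose by 3.32 and 3.15 (adjusted p 0.0215 and 0.0149). A_72_P041401 was at 3.79 without 10 weeks replicate 1 and was lost without 19 weeks replicate 3 (3.05, adjusted p 0.0518), and A_72_P114516 was lost without 10 weeks replicates 3 or 4 or 19 weeks replicates 2, 3 or 4 (3.02 to 3.20, adjusted p up to 0.0684).

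Among the falls, ARF6, a GTPase that directs membrane recycling, was at 10.18, 9.87, 9.94 and 10.38 (10 weeks), 7.72, 8.22, 8.03 and 8.03 (19 weeks) and 7.95, 8.33, 8.22 and 6.72 (27 weeks). Every value at 19 weeks lay below every value at 10 weeks (−2.10 ± 0.31, 4.28-fold, adjusted p 0.00466). FYN, a kinase behind the T-cell receptor, read 8.77, 9.11, 9.13 and 9.43 (10 weeks), 6.73, 7.61, 7.18 and 7.31 (19 weeks) and 7.03, 7.53, 7.98 and 6.23 (27 weeks) and fell 3.74-fold to 19 weeks (adjusted p 0.00743). ABCB1, an efflux pump of lymphocytes and NK cells, stood at 6.85, 6.53, 6.85 and 6.37 and then at 4.43, 4.67, 4.65 and 3.97, a fall of 4.65-fold (−2.22 ± 0.35, adjusted p 0.00571). The smallest ABCB1 change over the alternative settings was −1. RSC1A1, a regulator of sugar transporters, fell 5.61-fold (0.0151) and CD1.1, which presents lipids to T cells, 3.92-fold (0.00743). CXCR4, the receptor that holds leukocytes in the marrow, was at 10.57, 9.47, 10.23 and 9.88 (10 weeks), 9.46, 8.07, 7.86 and 7.58 (19 weeks) and 8.87, 8.94, 9.59 and 7.82 (27 weeks), with all 19-week values below all 10-week values (3.47-fold, adjusted p 0.0224). Further falls without overlap were seen in ATP2B1, a calcium pump (3.61-fold, adjusted p 0.0128), TPM1, a tropomyosin (3.5-fold, 0.0125), CLIC1, a chloride channel (3.38-fold, 0.0256), and STAT5A, which carries cytokine and growth hormone signals (at least 3.1-fold, 0.0386). Among probes without a symbol A_72_P297179 fell by at least 3.14-fold (adjusted p 0.00742) and A_72_P022651 by at least 4.87-fold (0.0114), a change of −3.09 that was −2.49 and −3.71 without 19 weeks replicates 3 and 4. At 19 weeks A_72_P297179 was well above background on 0 of 4 arrays and A_72_P022651 on 2. Both entered the test only through 10 weeks, which favours a fall. Over the alternative settings the smallest changes of STAT5A, A_72_P297179 and A_72_P022651 were −0.67, −0.67 and −0.94, in place of −1.76, −3.13 and −3.09.

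These calls varied with single arrays. The 1596 probes became 1060, 849 and 675 without replicate 2, 3 or 4 at 10 weeks and 476 and 837 without replicate 3 or 4 at 19 weeks, and up to 2065 otherwise. Of 52 named genes and probes past the threshold here, 11 passed it in all 12 fits that left out 1 array, among them ARF6, ABCB1, RSC1A1, CD1.1, FYN, TPM1, HHEX and TNFRSF1B. The number lost was 38 without replicate 3 at 19 weeks, 27 without replicate 4 and 13 and 10 without replicates 2 and 1, and 31, 26, 19 and 9 without replicates 4, 3, 2 and 1 at 10 weeks, and 5 and 4 without replicates 1 and 3 at 27 weeks. LY96 was lost without 10 weeks replicate 4 or 19 weeks replicate 3 (1.73 to 1.96, adjusted p up to 0.0559), NR4A3 without 10 weeks replicate 4 (1.68, adjusted p 0.0577) and SLPI without 19 weeks replicate 3 (1.60, adjusted p 0.0518). With scan day as a random block 2 probes were called (2372 at an unadjusted p under 0.05), with no background filter 912, and with the methods' t-test, adjusted by the Benjamini-Hochberg procedure, 705. In no comparison can this block measure the part of scan day, since day varied within a week only through replicate 1 at 19 weeks.

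From 19 to 27 weeks the list of changes was shorter and almost all of it downward. ACSL1, SREBF1, ROMO1, VNN1, GATA2 and GRK7 were among the named falls. limma called 314 of 17319 probes (1.81%), 35 rises (0.202%) and 279 falls (1.61%), with 2621 at an unadjusted p under 0.05 and 308 of the 314 free of overlap. The median size of change among them was 1.60, and that of all probes tested was 0.09. With a symbol, 1 probe rose and 31 fell of 1625 tested.

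P2RY1, the receptor through which platelets sense ADP, was the single named rise. It read 8.34, 8.34, 7.86 and 8.37 (10 weeks), 7.90, 7.99, 8.20 and 7.73 (19 weeks) and 8.87, 9.03, 9.27 and 9.14 (27 weeks). The 4 values at 27 weeks were above those of both earlier weeks, a rise of 1.12 ± 0.19 or 2.18-fold from 19 weeks (adjusted p 0.0138). Among the next largest rises without overlap, these were not past the threshold: TGFB2 1.07 (adjusted p 0.13), the aminopeptidase ANPEP 0.97 (0.0769) and the growth regulator MYC 0.96 (0.0634). Probes A_72_P310853 and A_72_P229997, which have no symbol, rose by at least 4.24-fold and at least 1.64-fold (adjusted p 0.0296 and 0.0237). At 19 weeks they were well above background on 2 and 1 of the 4 arrays. Their smallest changes over the alternative settings were 0.81 and 0.26, in place of 2.81 and 1.99.

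ACSL1, which activates long-chain fatty acids, was at 9.66, 10.89, 9.27 and 9.77 (10 weeks), 9.45, 11.83, 11.08 and 11.30 (19 weeks) and 8.25, 8.25, 7.85 and 8.19 (27 weeks). The values at 27 weeks lay below all earlier ones, and the fall from 19 weeks was 6.86-fold (−2.78 ± 0.45, adjusted p 0.0127). SREBF1, the transcription factor that switches on fatty acid synthesis, gave 11.11, 12.22, 11.03 and 11.11 (10 weeks), 11.33, 12.51, 11.89 and 12.61 (19 weeks) and 9.39, 9.43, 9.37 and 10.76 (27 weeks). Its fall was 5.08-fold (−2.34 ± 0.39, adjusted p 0.0127); a second SREBF1 probe changed by −4.11 and was not past the threshold. A probe the files name SREBP-2 read 11.25, 12.28, 11.27 and 11.50 (10 weeks), 11.56, 13, 11.95 and 12.09 (19 weeks) and 9.76, 9.52, 9.60 and 10.86 (27 weeks), a fall of 4.64-fold (adjusted p 0.0127). AE2, the file name of an anion exchanger, was at 12.90, 13.86, 13.12 and 12.96 (10 weeks), 12.82, 14.17, 13.54 and 13.74 (19 weeks) and 11.80, 11.32, 11.44 and 11.51 (27 weeks) and fell 4.14-fold (adjusted p 0.0116), with every value at 27 weeks under the rest. ROMO1, a small mitochondrial membrane protein, stood at 14.10, 13.38, 12.22 and 12.42 (10 weeks), 12.94, 15.50, 14.52 and 13.32 (19 weeks) and 10.28, 12.47, 10.64 and 10.17 (27 weeks). It fell 9.07-fold from 19 weeks (adjusted p 0.0241), but only 1 of its 4 probes was called.

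GATA2, a factor of progenitors and mast cells, went from 9.06, 10.60, 9.52 and 9.74 at 19 weeks to 7.82, 7.68, 7.96 and 8.43 at 27 weeks, a fall of 3.38-fold (adjusted p 0.0227). Falls without overlap were also found for VNN1, a pantetheinase (4.53-fold, adjusted p 0.025), SLC2A10, a glucose transporter (3.52-fold, 0.0127), GRK7, an opsin kinase of the retina (5.3-fold, 0.0171), and BMP15, a growth factor known from oocytes (4.33-fold, 0.0116). Over the alternative settings the smallest changes of GRK7 and BMP15 were −1.58 and −1.02, in place of −2.41 and −2.11. The probes for SREBF1, SREBP-2 and SLC2A10 have 66.7, 51.7 and 55% G and C bases; with the base composition shift removed their changes were −1.82 (adjusted p 0.0364), −2.15 (adjusted p 0.0185) and −1.29 (adjusted p 0.0385). Of the 21 named genes and probes past the threshold in this step 17 kept it with that shift removed and 4 lost it, F10 at −0.76 (adjusted p 0.149), RBP4 at −0.82 (adjusted p 0.13), IGF2 at −1.19 (adjusted p 0.16) and A_72_P310853 at 2.73 (adjusted p 0.0503). Among probes without a symbol, A_72_P178336 fell 12.3-fold and A_72_P372198 11-fold (adjusted p 0.0171 and 0.0116). A_72_P178336, at −3.62, was at −4.39 without 19 weeks replicate 1 and was lost without 19 weeks replicates 2, 3 or 4 or 27 weeks replicates 2 or 3 (−3.71 to −3.12, adjusted p up to 0.0818); A_72_P372198 was lost without 27 weeks replicate 3 (−3.25, adjusted p 0.0581).

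None of the 21 named genes and probes past the threshold between 19 and 27 weeks passed it in every fit that left out 1 array. Without replicate 3 at 27 weeks 0 probes were called by limma (1685 at an unadjusted p under 0.05), and all 21 were lost; P2RY1 was then at 1.06 (adjusted p 0.0709), ACSL1 at −2.68 (0.0614) and SREBF1 at −2.22 (0.0635). The 314 probes became 23, 127 and 78 without replicates 2, 3 and 4 at 19 weeks, 130 and 88 without replicates 1 and 2 at 27 weeks, and 657 without replicate 4. The 21 lost 18, 10 and 12 without replicates 2, 3 and 4 at 19 weeks, 10 without either replicate 1 or 2 at 27 weeks, 2 without replicate 1 at 19 weeks and 1 without either replicate 1 or 3 at 10 weeks. The call also ended or shrank in other settings: 0 with scan day as a random block (1190 at an unadjusted p under 0.05), 2 when the spread was taken from all 33 whole blood arrays, 5 by the methods' t-test adjusted in the same way, 119 without the background filter and 194 from the 8 arrays of these weeks alone. It grew to 636 without both dimmest arrays, a setting added after the data had been seen, and to 675 by the methods' t-test unadjusted with its fold threshold. What these differences stem from was not tested.

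From 10 to 27 weeks, the widest span of age, the number of calls was the largest. It uses the same arrays as the shorter steps, so its values stand beside theirs and are no separate evidence. limma called 3510 of 17138 probes (20.5%), 1908 rises (11.1%) and 1602 falls (9.35%), with 6300 at an unadjusted p under 0.05, 2798 of the 3510 without overlap and a median size of change of 1.17. The median of all probes tested was 0.08, and probes with a symbol gave 134 rises and 355 falls of 1640. Over the 3 weeks together, limma's F test called 3028 of 17690 probes (17.1%).

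NR4A3 rose most among the named genes under the main processing: its values at 27 weeks were 8.31, 7.93, 7.26 and 8.12, at least 6.66-fold above 10 weeks (2.97 ± 0.42, adjusted p 0.00201). The smallest NR4A3 change over the alternative settings was 1.66. LY96 was 5.71-fold higher than at 10 weeks without overlap (adjusted p 0.00413). KLRK1, the activating receptor NKG2D of killer cells, was at 9.28, 8.86, 7.80 and 7.04 (10 weeks), 10.37, 9.56, 8.69 and 9.16 (19 weeks) and 10.65, 9.84, 10.24 and 10.85 (27 weeks). Its lowest value at 27 weeks exceeded the highest at 10 weeks (2.15 ± 0.47, 4.44-fold, adjusted p 0.00917). TNFSF10, the death ligand TRAIL, stood at 5.34, 4.42, 5.21 and 2.65 at 10 weeks, 2 of them well above background, and at 7.31, 6.77, 6.84 and 5.90 at 27 weeks, a rise of at least 3.87-fold (adjusted p 0.0164). The smallest TNFSF10 change over the alternative settings was 0.94 in place of 2.3. ACSL4, which loads arachidonic acid into lipids, read 10.44, 10.10, 9.78 and 9.73 (10 weeks), 12.18, 11.54, 11.96 and 10.13 (19 weeks) and 12.38, 12.22, 12.53 and 11.38 (27 weeks) and rose 4.33-fold (adjusted p 0.00521), a rise called for 2 of its 5 probes. UBE2D1 was 3.87-fold higher (0.00605), SGMS1 3.28-fold (0.00377) and DEFB1 3.23-fold (0.00518). CGA, the shared subunit of pituitary glycoprotein hormones, rose at least 3.21-fold (0.00583) and the chloride channel CLC-2 at least 1.95-fold (0.0233). At 10 weeks CGA was well above background on 3 of 4 arrays and CLC-2 on 1. The probes A_72_P022911 and A_72_P262522 rose by at least 3.6-fold and at least 2.08-fold (adjusted p 0.00182 and 0.00156). They were well above background on 1 and 0 of the 4 arrays at 10 weeks. These probes entered the test only through their level at 27 weeks, which favours a rise. Over the alternative settings their smallest changes were 0.95 and 0.67, in place of 3.32 and 3.3.

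TAP1, which pumps peptides to MHC class I, had values of 9.67, 8.70, 8.61 and 8.99 (10 weeks), 5.11, 7.81, 7.47 and 7.07 (19 weeks) and 5.70, 7.21, 6.81 and 1.62 (27 weeks). Each value at 27 weeks was below each at 10 weeks, and the fall was at least 7.8-fold (−3.66 ± 0.98, adjusted p 0.0219). Its size rests in part on replicate 4 at 27 weeks, without which the change was −2.42, still past the threshold; without replicate 2 of that week it was −4.28. HMOX2, the constant form of haem oxygenase, was at 8.33, 8.53, 8.66 and 8.71 (10 weeks), 5.74, 7.31, 7.13 and 7.38 (19 weeks) and 6.26, 7.24, 6.56 and 4.66 (27 weeks), 5.2-fold lower at 27 than at 10 weeks without overlap (adjusted p 0.00648). ARF6 stayed low at 27 weeks, 4.89-fold under 10 weeks (adjusted p 0.00176), and RSC1A1 was down by at least 4.45-fold (0.0103). The smallest RSC1A1 change over the alternative settings was −1.29 in place of −2.39. STAT5A fell at least 3.43-fold (adjusted p 0.00879), the glycolytic enzyme GPI at least 3.94-fold (0.00943), and PPP1CA, a phosphatase subunit, at least 4.47-fold (0.0153). Over the alternative settings their smallest changes were −0.79, −0.85 and −1.08, in place of −2.25, −2.2 and −2.33. DNASE2, a nuclease of lysosomes, fell at least 4.51-fold (0.0206), SNCG, a synuclein, 6.05-fold (0.0213) and PLTP, which moves phospholipids between lipoproteins, 4.92-fold (0.0185). Of probes without a symbol, A_72_P350070 fell at least 7.2-fold (adjusted p 0.00541) and A_72_P275484 9.94-fold (0.011). Over the alternative settings the smallest changes of TAP1, DNASE2 and A_72_P350070 were −2.17, −1.35 and −1.44, in place of −3.66, −2.86 and −3.59.

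With the base composition shift removed, 49 of 88 named genes and probes past the threshold between 10 and 27 weeks kept it and 39 lost it; between 10 and 19 weeks 38 of 52 kept it and 14 lost it. LY96 was then at 2.28 (adjusted p 0.00961), KLRK1 at 1.87 (adjusted p 0.0291), ARF6 at −1.98 (adjusted p 0.00337) and TAP1 at −3.34 (adjusted p 0.0412). HMOX2 at −1.39 (adjusted p 0.0801), STAT5A at −1.26 (adjusted p 0.109), SNCG at −1.60 (adjusted p 0.139), PLTP at −1.31 (adjusted p 0.134) and SREBF1 at −0.63 (adjusted p 0.27) were among those lost, and their probes have 55% G and C bases, or 66.7% for SREBF1. In the fits that left out 1 array 46 of the 88 passed each time, with NR4A3, LY96, KLRK1, ACSL4, CGA, UBE2D1, SGMS1, DEFB1, CLC-2, RSC1A1, HMOX2, PPP1CA, ARF6, STAT5A and GPI among them. TAP1 was lost without 10 weeks replicate 4 (−3.66, adjusted p 0.0509), DNASE2 without 10 weeks replicate 4 (−2.84, adjusted p 0.0502), TNFSF10 without 27 weeks replicate 1 (2.10, adjusted p 0.0519), SNCG without 10 weeks replicate 2 or 27 weeks replicate 1 (−2.39 to −2.37, adjusted p up to 0.0642) and PLTP without 10 weeks replicates 2 or 3 or 27 weeks replicate 3 (−2.07 to −1.97, adjusted p up to 0.0589). Without 27 weeks replicate 4 DNASE2 was at −1.85 in place of −2.86, RSC1A1 at −1.74 in place of −2.39 and A_72_P350070 at −2.91 in place of −3.59, and without 10 weeks replicate 4 CLC-2 was at 1.18 in place of 1.79 and TNFSF10 at 1.71 in place of 2.30. PLTP was at −2.90 in place of −2.30 without 10 weeks replicate 1. The 3510 probes became 2074 and 1995 without replicate 2 or 4 at 10 weeks, 1885 without replicate 1 at 27 weeks, and up to 4246. The 3028 of the F test became 1981, 1963 and 1635 without replicates 2, 3 and 4 at 10 weeks and 1890 without replicate 1 at 27 weeks. With scan day as a random block 2 probes were called between 10 and 27 weeks (3082 at an unadjusted p under 0.05) and 4 by the F test (2763). The methods' t-test, so adjusted, called 1274, and the share of spots above background as a covariate left 2108 and 1980 for the F test.

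**Figure D3:**
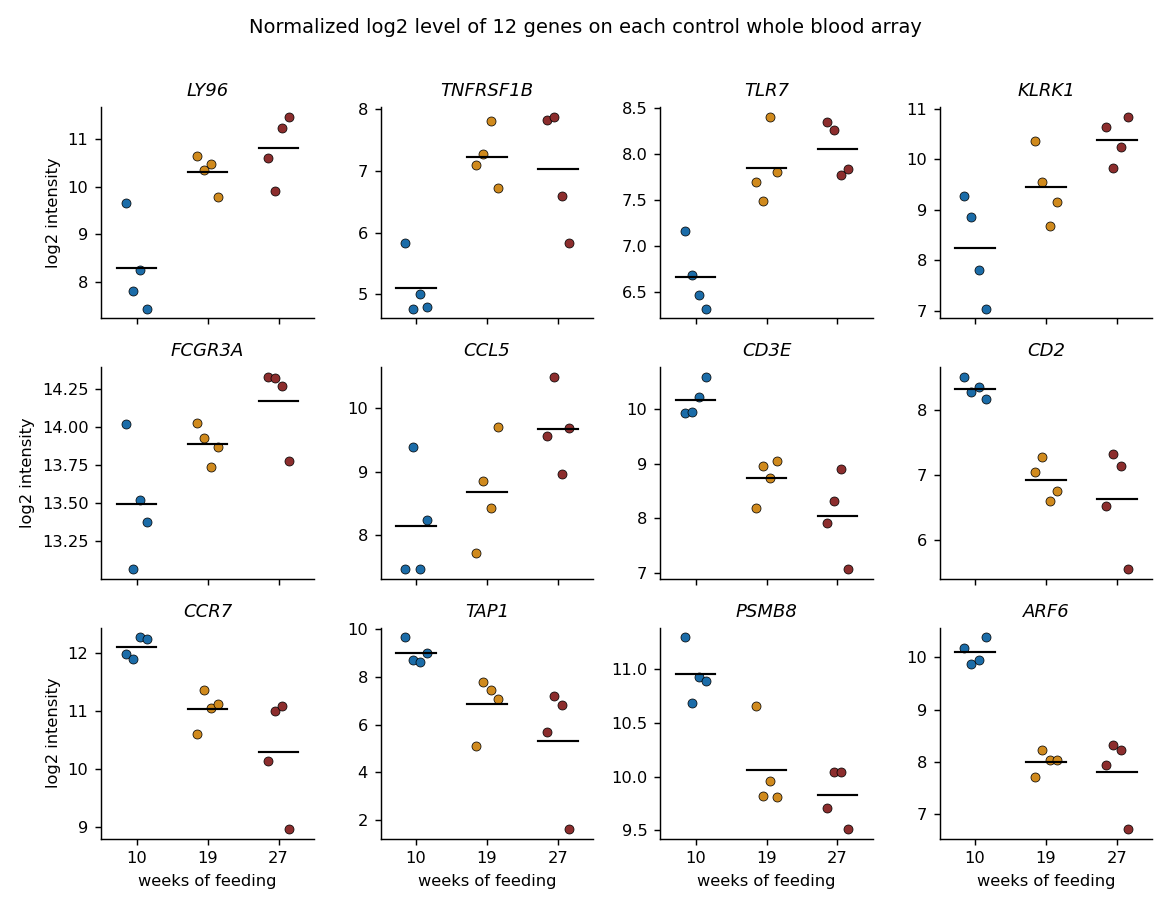
Normalized log2 intensity of 12 genes (one panel each, vertical axis) on every control whole blood array after 10, 19 and 27 weeks (horizontal axis); points are arrays and lines the means of 4. LY96, TLR7 and KLRK1 have every value at 27 weeks above every value at 10 weeks, and CD3E, CD2, CCR7, TAP1, PSMB8 and ARF6 every value below. Of 11 T-cell genes tested 4 fell. Of the 7 not called, which include the brightest, CD3D, and are not shown, 4 were higher. With the base composition shift removed PSMB8 changed by −0.13 (limma adjusted p 0.752).

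Genes of each cell type and process were then read together in 27 lists. Each count is that of list members past the same threshold. From 10 to 27 weeks 11.1% of all probes rose and 9.35% fell, with a median of 0.08, but the members all carry a symbol, and of probes with a symbol 8.17% rose and 21.6% fell, with a median of −0.18. From 10 to 19 weeks the shares were 3.33 and 6.11% of all probes (median 0.04) and 2.93 and 12.4% of those with a symbol (median −0.17). Between 19 and 27 weeks they were 0.202 and 1.61% (median 0.09) and 0.0615 and 1.91% (median 0.04). What is said of fits that left out 1 array holds for the change from 10 to 27 weeks unless another step is named.

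Of 11 T-cell genes tested, 0 rose and 4 fell from 10 to 27 weeks, with a median of −0.37, and of the 7 not called 4 were higher. By 19 weeks 2 of 11 had fallen with a median of −0.50, and from 19 to 27 weeks none of 10 was called by limma (median 0.08). CD3E, a chain of the T-cell receptor complex, was at 9.93, 9.95, 10.22 and 10.59 (10 weeks), 8.19, 8.96, 8.73 and 9.04 (19 weeks) and 7.91, 8.31, 8.90 and 7.07 (27 weeks), without overlap between 10 and 27 weeks (−2.12 ± 0.34, 4.36-fold, adjusted p 0.0029; −1.44 and 0.0217 already at 19 weeks). CCR7, which guides naive T cells into lymph nodes, fell 3.49-fold (adjusted p 0.00849), and CD2, an adhesion molecule, 3.23-fold (0.00543), called for 1 of its 2 probes. CD8B, a coreceptor chain, fell 2.46-fold (0.0323) with overlap, whereas CD8A changed by 0.63 (0.0734), CD3G by −0.37 and GATA3 by −0.35, none past the threshold. The brightest member, CD3D, changed by 0.22 (adjusted p 0.43), with values of 11.96, 11.85, 12.14 and 12.01 (10 weeks), 11.72, 12.24, 12.22 and 12.46 (19 weeks) and 12.21, 12.35, 12.16 and 12.10 (27 weeks), although another of its 3 probes fell, by 1.76. Mean levels of the list on the arrays were 9.46, 9.11, 9.49 and 9.17 (10 weeks), 8.50, 8.88, 8.68 and 8.72 (19 weeks) and 8.63, 8.66, 9.20 and 8.03 (27 weeks). CD3E, CCR7 and CD2 passed the threshold from 10 to 27 weeks in every fit that left out 1 array and with the base composition shift removed (CD3E −1.81 (adjusted p 0.0062)), while CD8B did not with that shift removed, at −0.98 (adjusted p 0.111), nor without 10 weeks replicates 1 or 3 or 27 weeks replicates 1, 2 or 4 (−1.38 to −0.96, adjusted p up to 0.0829). The earlier call of CD3E at 19 weeks was lost without 10 weeks replicates 3 or 4 or 19 weeks replicate 3 (−1.44 to −1.3, adjusted p up to 0.0681) and that of CD2 without 10 weeks replicate 3 or 19 weeks replicates 3 or 4 (−1.40 to −1.3, adjusted p up to 0.0693).

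Of 6 genes of cytotoxic and NK cells tested, 3 rose and 0 fell from 10 to 27 weeks (median 0.68), and all 6 had a higher mean at 27 weeks. At 19 weeks the median was 0.48 with none called by limma. Beside KLRK1, CCL5, a chemokine stored by killer cells, rose 2.89-fold from 7.47, 9.38, 7.47 and 8.24 to 9.56, 10.49, 8.96 and 9.69 (adjusted p 0.043), with overlap. FCGR3A, the Fc receptor of NK cells and monocytes, rose 1.6-fold (adjusted p 0.0488). GNLY, the brightest of the list, stood at 14.15, 15.01, 13.82 and 14.12 (10 weeks), 14.21, 15.14, 14.33 and 15.09 (19 weeks) and 15.49, 15.57, 14.21 and 14.56 (27 weeks) and was not past the threshold (0.68, adjusted p 0.19). KLRK1 held in all 12 fits that left out 1 array. CCL5 was lost without 10 weeks replicates 1, 3 or 4, 19 weeks replicates 2 or 3 or 27 weeks replicates 1, 2 or 4 (1.26 to 1.57, adjusted p up to 0.109), and FCGR3A without 10 weeks replicates 2, 3 or 4, 19 weeks replicates 2, 3 or 4 or 27 weeks replicates 1, 2 or 3 (0.54 to 0.69, adjusted p up to 0.136). The base composition shift removed left KLRK1 at 1.87 (adjusted p 0.0291) and CCL5 at 1.38 (adjusted p 0.0759).

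Of 11 genes tested that cut, load and present peptides on MHC class I, 6 fell and 0 rose from 10 to 27 weeks (median −0.69), 3 fell from 10 to 19 weeks (median −0.48) and none was called by limma from 19 to 27 weeks (median −0.13). Beside TAP1, both of whose probes fell, SLA-7, a class I molecule, was at 14.65, 13.95, 14.17 and 14.51 (10 weeks), 12.59, 13.25, 13.05 and 13.17 (19 weeks) and 12.38, 13.11, 12.49 and 11.45 (27 weeks). All values at 27 weeks lay below those at 10 weeks (3.91-fold, adjusted p 0.00287). PSMB8, a subunit of the immunoproteasome, fell 2.18-fold (adjusted p 0.00803), and its partners PSMB9, PSMB10 and PSME1 by −0.61, −0.78 and −0.84 (adjusted p 0.0411, 0.0215 and 0.016). PSME2 was just short of the threshold (−0.69, 0.0514), and the classical molecules SLA-1 (0.15) and SLA-3 (−0.08) were not past it.

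Most of these calls did not hold once the base composition shift was removed. The list's median from 10 to 27 weeks was then −0.31 and 1 of the 11, TAP1, was called: SLA-7 was at −0.97 (adjusted p 0.0715), PSMB8 at −0.13 (adjusted p 0.752), PSMB9 at −0.29 (adjusted p 0.288), PSME1 at −0.53 (adjusted p 0.077), and PSMB10 turned to 0.21 (adjusted p 0.497). SLA-7 and PSMB8 held in all 12 fits that left out 1 array; PSMB9 was lost without 10 weeks replicates 1, 3 or 4, 19 weeks replicates 2 or 3 or 27 weeks replicates 1, 3 or 4 (−0.61 to −0.53, adjusted p up to 0.0983), PSMB10 without 10 weeks replicates 3 or 4 or 27 weeks replicates 1, 3 or 4 (−0.76 to −0.69, adjusted p up to 0.0622) and PSME1 without 27 weeks replicate 1 (−0.72, adjusted p 0.0562). MHC class II had 5 genes tested, of which 1 fell, with a median of 0.00 that changed sign with the scaling (0.09 with 75th percentile scaling and −0.23 with the base composition shift removed). The fall was that of CD74, the chain that guards the class II groove, at −1.24 (2.36-fold, adjusted p 0.00427), and −0.25 (adjusted p 0.438) with that shift removed. At 19 weeks CD74 was also the single call, at −0.82 (0.0375). That call passed in 3 of 12 fits that left out 1 array (adjusted p up to 0.11). From 19 to 27 weeks limma called none.

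Of 27 cytokines, chemokines and receptors tested, 5 rose and 3 fell from 10 to 27 weeks, but 6 rose and 0 fell (limma) with the base composition shift removed (median −0.02, but 0.10 with 75th percentile scaling and 0.35 with that shift removed). IL18 was at 9.07, 7.01, 7.26 and 6.90 (10 weeks), 10.25, 9.27, 10.32 and 8.73 (19 weeks) and 9.88, 9.01, 10.16 and 9.72 (27 weeks), 4.38-fold higher at 27 weeks (adjusted p 0.011) with 1 value at 10 weeks inside the later range. Among the other rises, TNFRSF1B rose 3.81-fold (0.0102), now with overlap, the anti-inflammatory cytokine IL10 at least 2.29-fold (0.0376) and the chemokine CCL4 1.94-fold (0.0489). Falls were those of CXCR3, a receptor of effector T cells (2.65-fold, adjusted p 0.0334), TGFB1 (1.83-fold, 0.0311) and CCR10 (1.8-fold, 0.0478), and with the base composition shift removed CCR10 turned to 0.15 (adjusted p 0.77) and CXCR3 was at −0.41 (adjusted p 0.473). In the first step 4 rose and 1 fell of 25 (median 0.11): IL18, TNFRSF1B, CCL3L1 and the interleukin 6 receptor IL6R (at least 1.73-fold, adjusted p 0.0228) rose and CXCR4 fell. Over the alternative settings the smallest IL6R change in this step was 0.33 in place of 0.97. That of IL10 from 10 to 27 weeks was 0.59 in place of 1.22. From 19 to 27 weeks limma called none of 28 (median 0.07). IL18 and TNFRSF1B passed in all 12 fits that left out 1 array between 10 and 27 weeks.

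The other 5 genes named from this list did not hold in all of those fits. IL10 was lost without 10 weeks replicates 2, 3 or 4 or 27 weeks replicates 1, 3 or 4 (0.97 to 1.32, adjusted p up to 0.109) and CCL4 without 10 weeks replicates 1, 3 or 4, 19 weeks replicates 2, 3 or 4 or 27 weeks replicates 1, 2 or 3 (0.78 to 0.97, adjusted p up to 0.135). CXCR3 was lost without 10 weeks replicates 2 or 4 or 27 weeks replicates 1, 2 or 3 (−1.37 to −1.16, adjusted p up to 0.0986), TGFB1 without 10 weeks replicates 2 or 4 or 27 weeks replicates 1 or 4 (−0.86 to −0.66, adjusted p up to 0.0831) and CCR10 without 10 weeks replicates 3 or 4, 19 weeks replicates 2, 3 or 4 or 27 weeks replicates 1, 2, 3 or 4 (−0.93 to −0.64, adjusted p up to 0.135).

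Of 13 sensors of microbes tested from 10 to 27 weeks 2 rose and 2 fell, with a median of 0.00 (0.14 with 75th percentile scaling and −0.07 with the normexp background correction). TLR7, which senses RNA inside endosomes, was at 7.17, 6.69, 6.47 and 6.32 (10 weeks), 7.70, 7.49, 8.41 and 7.81 (19 weeks) and 8.35, 8.26, 7.77 and 7.84 (27 weeks), higher on every array at 19 and 27 weeks than on any at 10 weeks (2.62-fold at 27 weeks, adjusted p 0.00464; 2.28-fold, 0.0151 at 19 weeks). LY96 was the other rise. IRF3, a factor of the interferon response, fell at least 3.32-fold (adjusted p 0.0105), and NFKB1 fell 2.35-fold (0.0234), although it was lost without 10 weeks replicates 2 or 4 or 27 weeks replicate 1 (−1.25 to −1.17, adjusted p up to 0.0626). TLR4, TLR2 and CD14, partners of LY96, changed by −0.07, 0.06 and 0.03, and MYD88 by −0.47, none past the threshold. By 19 weeks LY96 and TLR7 had risen and NFKB1 had fallen, of 14 tested (median −0.05, 0.01 with 75th percentile scaling), and from 19 to 27 weeks limma called none (median 0.17).

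Interferon-induced genes had a median of 0.36 from 10 to 27 weeks, yet 1 rose and 4 fell of 22. TNFSF10 was the rise, and TAP1, PSMB8, PSMB9 and IRF9 (−0.74, adjusted p 0.0352), all but IRF9 also members of the class I list, were the falls. IRF9 was lost without 10 weeks replicates 2 or 4 or 27 weeks replicates 2 or 4 (−0.75 to −0.56, adjusted p up to 0.103). The antiviral genes MX1 (0.62, adjusted p 0.319), OAS2 (1.04, 0.151) and RSAD2 (1.13, 0.0965) had higher means without passing the threshold. PSMB8 was the single call from 10 to 19 weeks (−0.89, 0.0347; median 0.37), and from 19 to 27 weeks limma called none of 22 (median −0.04).

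B cells gave few genes. Of 5 tested none was called by limma from 10 to 27 weeks, with a median of −0.13 that turned to 0.05 with the base composition shift removed. TNFSF13B, a survival factor for B cells, changed by 0.57 (adjusted p 0.384) and CD72, a B-cell surface protein, by −0.27 (0.698), the latter turning to 0.05 with that shift removed and to 0.08 without both dimmest arrays. From 10 to 19 weeks 1 of the list's genes fell (median −0.16), and from 19 to 27 weeks limma called none (median 0.30).

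Among myeloid cells, genes of monocytes and macrophages had a median of 0.34 from 10 to 27 weeks, and 2 of 13 rose: CD86, a costimulator (0.64, adjusted p 0.0464), and LGALS3, a galectin (0.87, 0.0372). CD86 was lost without 10 weeks replicates 2 or 3, 19 weeks replicates 2, 3 or 4 or 27 weeks replicates 1, 2 or 4 (0.53 to 0.68, adjusted p up to 0.135) and LGALS3 without 10 weeks replicates 2, 3 or 4 or 27 weeks replicates 1, 2 or 3 (0.66 to 0.90, adjusted p up to 0.11). CD163, a scavenger of haemoglobin, changed by 0.96 (0.0561), short of the threshold. In the earlier and the later step limma called none of 14 (medians 0.37 and 0.02). Of 12 neutrophil genes 1 rose, ALOX5AP of leukotriene synthesis (2-fold, adjusted p 0.0381), lost without 10 weeks replicates 2, 3 or 4 or 27 weeks replicates 1, 2 or 3 (0.73 to 1.05, adjusted p up to 0.112). NCF1 of the oxidative burst changed by −1.38 (0.0579), and by −1.65 to −0.77 in the fits that left out 1 array. The list's medians were 0.07 from 10 to 27, 0.09 from 10 to 19 and −0.21 from 19 to 27 weeks. Among eosinophil, basophil and mast-cell genes GATA2 was the 1 call of 6 from 10 to 27 weeks (2.49-fold, adjusted p 0.0185) and from 19 to 27 weeks, and none was called by limma from 10 to 19 weeks. Their median was −0.10 from 10 to 27 weeks and 0.03 with 75th percentile scaling, and GATA2 was lost without 10 weeks replicate 2 or 27 weeks replicate 1 (−1.26 to −1.06, adjusted p up to 0.0552).

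Platelet genes numbered 9, of which 1 fell from 10 to 27 weeks: CLU, a chaperone of platelet granules (4.33-fold, adjusted p 0.0109), past the threshold in every fit that left out 1 array. PPBP, a platelet chemokine, changed by 0.68 (0.0936). The list's median was −0.35 but 0.37 with the base composition shift removed, −0.45 from 10 to 19 weeks and 0.17 from 19 to 27 weeks, both without a call (−0.01 and 0.49 with that shift removed). Mean levels of the list were 10.38, 11.02, 10.55 and 10.83 (10 weeks), 10.31, 10.36, 10.36 and 10.06 (19 weeks) and 10.36, 10.28, 10.58 and 9.98 (27 weeks). Haemoglobin and haem genes gave no call by limma in any comparison (6 tested, medians −0.14, −0.10 and −0.36 for 19 minus 10, 27 minus 19 and 27 minus 10 weeks, the first turning to 0.20 with the base composition shift removed). HBE1, an embryonic globin, changed by −0.50 from 10 to 27 weeks (adjusted p 0.306) and HMOX1 by 1.43 (0.0637). The 3 red cell membrane genes had medians of −0.10, −0.20 and −0.21 and no call, with CAT at −0.21, RHCE at −1.02 and FAM210B at 0.06 from 10 to 27 weeks.

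**Figure D4:**
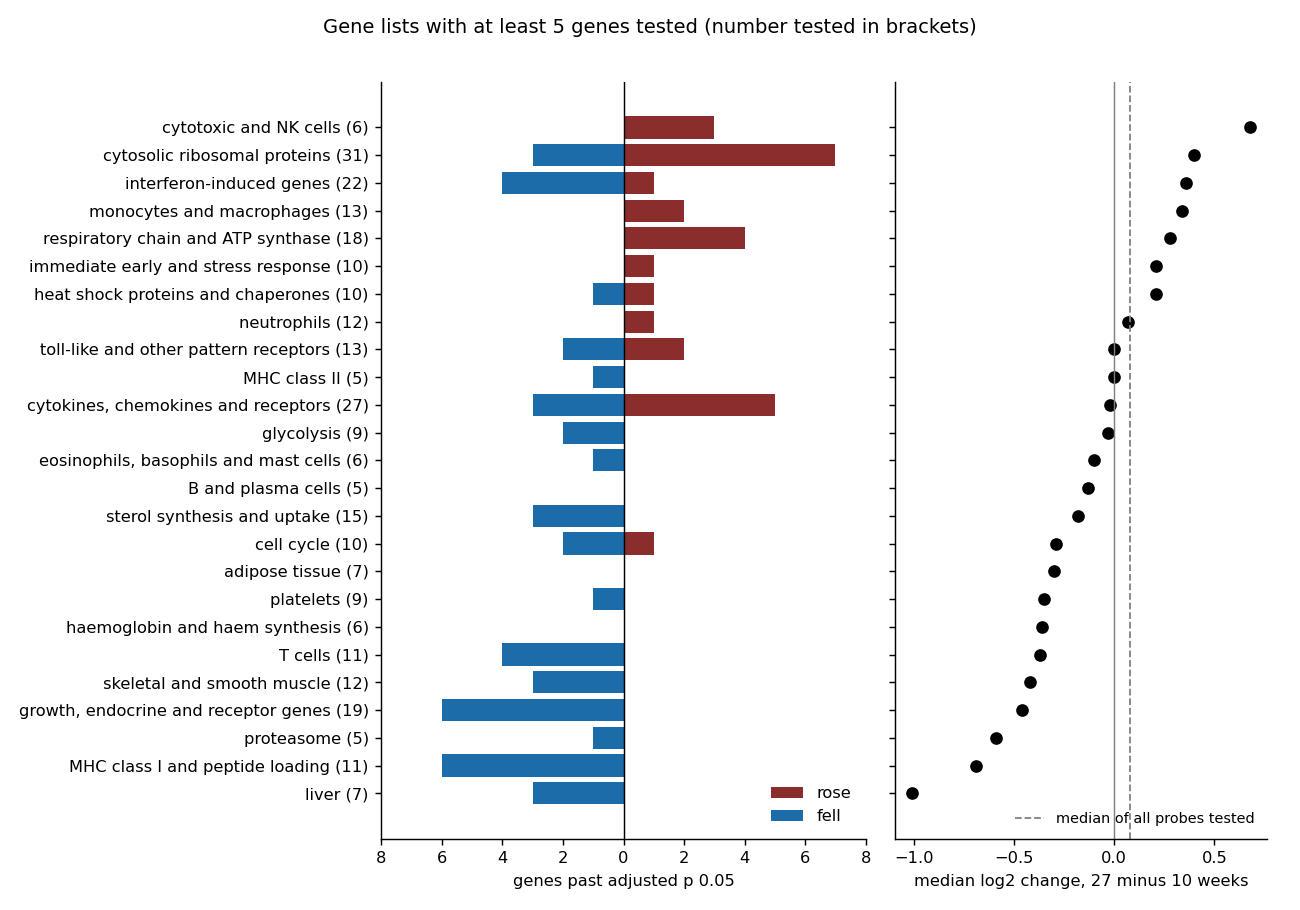
Gene lists with at least 5 genes tested between 27 and 10 weeks. Left, number of list genes that rose (right of 0) or fell (left of 0) at an adjusted p under 0.05; right, median log2 change of the list's genes, with the median of all probes tested (0.08) dashed. Cytotoxic genes have 3 rises and a median of 0.68, and class I genes 6 falls and a median of −0.69. Of all probes with a symbol 8.17% rose and 21.6% fell, with a median of −0.18. With the base composition shift removed 1 class I gene fell (median −0.31). Of the cytotoxic rises, CCL5 and FCGR3A passed in 4 and 3 of 12 fits that left out 1 array.

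Genes of ribosomal proteins and of respiration had medians above that of all probes from 10 to 19 and from 10 to 27 weeks. Of 31 cytosolic ribosomal protein genes 7 rose and 3 fell from 10 to 27 weeks (median 0.40). RPS29 rose 2.28-fold (adjusted p 0.00425) and RPLP0 fell 2.56-fold (0.00432), both in all 12 fits that left out 1 array. Among the others, RPL23 (2.02, 0.0224), RPL22 (1.76, 0.0461), RPL11 (0.71), RPS23 (0.66) and RPS26 (0.54) rose and RPL5 (−1.05) fell, but each was lost in some of those fits. RPL23 was lost without 10 weeks replicates 2 or 4 or 27 weeks replicates 3 or 4 (1.59 to 1.99, adjusted p up to 0.0658) and RPL5 without 10 weeks replicates 1, 3 or 4 or 27 weeks replicates 1, 2 or 4 (−1.13 to −0.85, adjusted p up to 0.105). RPL11 was lost without 10 weeks replicates 2, 3 or 4 or 27 weeks replicates 1, 3 or 4 (0.59 to 0.75, adjusted p up to 0.0857) and RPL22 without 10 weeks replicates 2, 3 or 4, 19 weeks replicates 2, 3 or 4 or 27 weeks replicates 1, 3 or 4 (1.3 to 1.91, adjusted p up to 0.127). RPS23 was lost without 10 weeks replicates 2, 3 or 4, 19 weeks replicates 2 or 3 or 27 weeks replicates 1, 2, 3 or 4 (0.55 to 0.71, adjusted p up to 0.119) and RPS26 without 10 weeks replicates 2, 3 or 4, 19 weeks replicates 2, 3 or 4 or 27 weeks replicates 1, 2 or 4 (0.49 to 0.59, adjusted p up to 0.115). With the base composition shift removed 4 genes of the list rose and 1 fell (median 0.37): RPS29, RPLP0 and RPS23 kept their calls, and RPL23 at 1.73 (adjusted p 0.0518), RPL22 at 1.90 (adjusted p 0.0566), RPL11 at 0.43 (adjusted p 0.135), RPS26 at 0.26 (adjusted p 0.259) and RPL5 at −0.74 (adjusted p 0.131) lost them. In the earlier step 1 rose and 2 fell (median 0.27): RPS29 rose and RPLP0 and RPL5 fell. From 19 to 27 weeks limma called none (median 0.13).

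Of 18 genes of the respiratory chain and ATP synthase 4 rose and 0 fell from 10 to 27 weeks (median 0.28). COX6C rose 3.46-fold (adjusted p 0.0136), COX7C 3.3-fold (0.0261), NDUFC1 2.68-fold (0.00553) and COX7A2 1.73-fold (0.0421). COX6C and NDUFC1 held in every fit that left out 1 array and with the base composition shift removed, where the list had 2 rises (median 0.42), COX7C was at 1.44 (adjusted p 0.0629) and COX7A2 at 0.55 (adjusted p 0.145). COX7C was lost without 10 weeks replicates 2, 3 or 4 or 27 weeks replicates 3 or 4 (1.33 to 1.69, adjusted p up to 0.0764) and COX7A2 without 10 weeks replicates 2, 3 or 4, 19 weeks replicates 3 or 4 or 27 weeks replicates 3 or 4 (0.60 to 0.81, adjusted p up to 0.105). NDUFC1 was the 1 call from 10 to 19 weeks (1.23, 0.0173; median 0.26); from 19 to 27 weeks limma called none (median 0.09, −0.01 with the base composition shift removed). In glycolysis GPI and TPI1 (4.07-fold, adjusted p 0.00335) were the 2 falls of 9 from 10 to 27 weeks, in all 12 fits that left out 1 array. Both fell already by 19 weeks, but there GPI was lost without 10 weeks replicates 1, 2 or 4, 19 weeks replicates 1, 2, 3 or 4 or 27 weeks replicates 1 or 3 (−1.90 to −1.23, adjusted p up to 0.117) and TPI1 without 10 weeks replicates 2, 3 or 4 or 19 weeks replicates 1, 3 or 4 (−1.44 to −1.22, adjusted p up to 0.0832). The list's medians were −0.03 from 10 to 27 weeks (0.02 with the base composition shift removed), 0.13 from 10 to 19 and 0.03 from 19 to 27 weeks (−0.07 with that shift removed).

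Protein folding and breakdown changed in single members. HSP90AB1, the constant form of HSP90, was at 11.97, 12.01, 11.86 and 11.96 at 10 weeks, at 10.74, 11.23, 10.44 and 10.17 at 19 weeks and between 9.42 and 10.74 at 27 weeks, below every value at 10 weeks (3.66-fold, adjusted p 0.00295). HSPA5, the chaperone of the endoplasmic reticulum, rose 2.61-fold (0.00952); these were the 2 calls of 10 chaperone genes (median 0.21). By 19 weeks HSPA5 rose and HSP90AB1 and HSP70.2 fell (1.04, −1.3 and −1.31; median 0.15), and from 19 to 27 weeks limma called none (median 0.24). Of 5 proteasome genes, PSMB7 fell 2.25-fold from 10 to 27 weeks (adjusted p 0.00982) and, with PSME3, from 10 to 19 weeks (−1.29 and −0.99); the medians were −0.59, −0.99 and, with no call by limma, 0.27 from 19 to 27 weeks. Immediate early and stress genes gave 1 rise of 10, NR4A3 (median 0.21). At 19 weeks NR4A3 stood higher and HIF1A lower (−1.12, adjusted p 0.0223; median −0.02), and the median from 19 to 27 weeks was 0.26 with none called by limma.

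In the cell cycle list CCND3, the cyclin of dividing lymphocytes, was at 8.81, 8.50, 7.77 and 8.51 (10 weeks), 6.77, 7.81, 7.34 and 7.29 (19 weeks) and 6.37, 6.61, 6.25 and 5.58 (27 weeks). It fell 4.58-fold from 10 to 27 weeks without overlap (adjusted p 0.00176), and with the base composition shift removed it was at −1.20 (adjusted p 0.0261) in place of −2.20. STMN1, which loosens microtubules at division, fell 1.89-fold (0.00715) and CCND2 rose 2.08-fold (0.017), lost without 10 weeks replicate 4 (0.97, adjusted p 0.0523). The list's median was −0.29 over 10 genes; from 10 to 19 weeks CCND3 and STMN1 fell (median −0.48), and from 19 to 27 weeks limma called none (median −0.04, 0.02 with 75th percentile scaling). Sterol genes gave 3 falls of 15 from 10 to 27 weeks (median −0.18): SREBF1 (3.09-fold, adjusted p 0.014), the sterol receptor NR1H3 (2.45-fold, 0.0247) and NPC2 (1.78-fold, 0.0284). NR1H3 was lost without 10 weeks replicate 4 or 27 weeks replicates 3 or 4 (−1.28 to −1.03, adjusted p up to 0.0739) and NPC2 without 10 weeks replicates 1 or 4 or 27 weeks replicates 1, 2 or 4 (−0.82 to −0.72, adjusted p up to 0.084). INSIG1, which holds back sterol synthesis, changed by −1.28 (0.175), not past the threshold. In the earlier step 2 genes fell, NPC2 among them (−0.89; median −0.30), and from 19 to 27 weeks SREBF1 did (median 0.18). The single clock gene tested, ARNTL, changed by −0.49, 0.95 and 0.45 in 19 minus 10, 27 minus 19 and 27 minus 10 weeks, with no call by limma.

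Growth, endocrine and receptor genes fell where they were called. From 10 to 27 weeks 6 of 19 fell and 0 rose (median −0.46), and 4 fell with the base composition shift removed (median −0.15). ADIPOR1, an adiponectin receptor, fell 4.51-fold (adjusted p 0.0119), STAT5A as given above, IGFBP2, which binds insulin-like growth factors, 3.18-fold (0.0121) and INHA, a subunit of inhibin, 2.02-fold (0.00858), each in all 12 fits that left out 1 array. IGF1 fell 1.86-fold (0.0444) and CYP19A1, the aromatase, 1.7-fold (0.0414). IGF1 was lost without 10 weeks replicates 2 or 3, 19 weeks replicates 2, 3 or 4 or 27 weeks replicates 1, 2 or 3 (−0.92 to −0.67, adjusted p up to 0.124) and CYP19A1 without 10 weeks replicates 1, 2 or 4, 19 weeks replicates 2, 3 or 4 or 27 weeks replicates 1, 2 or 3 (−0.82 to −0.61, adjusted p up to 0.114). From 19 to 27 weeks CYP19A1, IGF2 and INHA fell (−1.42, −1.72 and −1.39; adjusted p 0.013, 0.0387 and 0.0127; median −0.55 over 18 genes, and 2 falls with a median of −0.65 with that shift removed). From 10 to 19 weeks STAT5A was the 1 fall (median 0.07, −0.05 with the normexp background correction).

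Genes known from other tissues were read the same way. Of 7 liver genes tested 3 fell from 10 to 27 weeks (median −1.01, and −0.04 with no call by limma once the base composition shift was removed): F10, a clotting factor (3.15-fold, adjusted p 0.00293), the apolipoprotein APOC3 (2.21-fold, 0.0289) and RBP4, a carrier of retinol (1.9-fold, 0.0232). With that shift removed F10 was at −0.66 (adjusted p 0.0681) and RBP4 turned to 0.06 (adjusted p 0.875). APOC3 was lost without 10 weeks replicates 2, 3 or 4 or 27 weeks replicates 1, 2 or 3 (−1.19 to −0.90, adjusted p up to 0.0842) and RBP4 without 10 weeks replicate 2 or 27 weeks replicates 2 or 3 (−0.92 to −0.71, adjusted p up to 0.0637). F10 and RBP4 fell from 19 to 27 weeks, calls that were both lost with that shift removed (median −1.14 over 8 genes), and limma called none from 10 to 19 weeks (median 0.20). Mean levels of the list were 7.22, 8.15, 7.25 and 7.51 (10 weeks), 8.44, 7.73, 7.5 and 7.63 (19 weeks) and 6.67, 6.18, 6.37 and 7.63 (27 weeks), its brightest gene was ITIH2, and ALB was at background.

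Muscle genes gave 3 falls of 12 from 10 to 27 weeks (median −0.42): DES (2.04-fold, adjusted p 0.0293), TPM1 (2.39-fold, 0.0316) and TPM2 (2-fold, 0.0147). DES was lost without 10 weeks replicates 2 or 3 or 27 weeks replicates 1, 2 or 3 (−1.04 to −0.76, adjusted p up to 0.0789) and TPM1 without 10 weeks replicates 2 or 4 or 27 weeks replicates 1, 2 or 4 (−1.28 to −1.04, adjusted p up to 0.0983), and TPM2 held in all 12 fits. TPM1 and TPM3 fell from 10 to 19 weeks (median −0.34) and DES from 19 to 27 weeks (median −0.11, 0.04 with the base composition shift removed). Mean levels were 8.75, 9.07, 8.67 and 9.06 (10 weeks), 8.68, 8.50, 8.40 and 8.64 (19 weeks) and 8.17, 8.35, 8.44 and 8.74 (27 weeks), TPM3 was the brightest gene and CKM was at background. Fat genes gave no call by limma among 7 (medians 0.09, −0.32 and −0.30 for 19 minus 10, 27 minus 19 and 27 minus 10 weeks, the first turning to −0.05 with the base composition shift removed and −0.03 with the normexp background correction). Their mean levels were 8.34, 8.58, 8.34 and 8.63 (10 weeks), 8.41, 8.15, 8.46 and 8.23 (19 weeks) and 8.14, 8.10, 8.13 and 7.95 (27 weeks), with LIPE the brightest and ADIPOQ near background on all but 1 array. The part of other tissues in these values was not tested.

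Further named genes lost their call from 10 to 27 weeks with the base composition shift removed. Among immune and myeloid genes these were IL10 at 0.99 (adjusted p 0.0693), TGFB1 at −0.56 (adjusted p 0.126), NFKB1 at −0.92 (adjusted p 0.0683), LGALS3 at 0.59 (adjusted p 0.128) and ALOX5AP at 0.72 (adjusted p 0.114), while CCL4 moved to 1.95 (adjusted p 0.00313). Elsewhere they were CCND2 at 0.77 (adjusted p 0.0684), NR1H3 at −0.98 (adjusted p 0.0748), CYP19A1 at −0.73 (adjusted p 0.0718), APOC3 at −0.83 (adjusted p 0.11), DES at −0.71 (adjusted p 0.121), TPM1 at −0.94 (adjusted p 0.089) and CLC-2 at 1.5 (adjusted p 0.0508), and the call of A_72_P350070 was kept at −2.60 (adjusted p 0.0312). Between 10 and 19 weeks the calls lost in this way included those of the class I genes SLA-7 at −0.83 (adjusted p 0.147), PSMB8 at −0.41 (adjusted p 0.336) and PSME1 at −0.57 (adjusted p 0.0814), so that none of that list was left (limma). CD74 at −0.35 (adjusted p 0.325), CCND3 at −0.62 (adjusted p 0.238), STAT5A at −1.29 (adjusted p 0.13), CLIC1 at −1.51 (adjusted p 0.0549), GPI at −1.45 (adjusted p 0.0809), HSP70.2 at −0.84 (adjusted p 0.124) and HSPA5 at 0.90 (adjusted p 0.0627) were also lost, as were RPL5 at −0.99 (adjusted p 0.0714), RPLP0 at −0.63 (adjusted p 0.112) and RPS29 at 0.62 (adjusted p 0.0666).

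Counts of lists moved as well when that shift was removed. From 10 to 27 weeks there were then 2 rises of cytotoxic genes (median 1.00), 3 rises and 1 fall of microbe sensors, 1 rise and 2 falls of interferon-induced genes (median 0.19), 1 rise of monocyte genes and 0 calls (limma) of neutrophil genes. Platelet genes had 1 rise and 1 fall, haemoglobin and haem genes 1 rise (median 0.00), chaperones 2 rises and 1 fall, immediate early genes 2 rises and cell cycle genes 0 rises and 3 falls. Sterol genes had 1 fall (median −0.40) and muscle genes 1 rise and 1 fall, and the proteasome median was −0.22.

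Probes of 1 gene did not always move alike. Of the genes with several probes tested, 105 of 363 had probes that differed in their call from 10 to 19 weeks, 11 of 344 from 19 to 27 weeks and 152 of 360 from 10 to 27 weeks.

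The rich diets give the change over the same ages on other feed. Arrays of HFCD (11) and HFCSD (10) at 10 weeks were scanned on day 1 and at 27 weeks on day 4, as the control arrays were, but at 19 weeks all on day 3, where the control had 1 array. LY96 changed by 1.79 and 1.40 from 10 to 27 weeks on HFCD and HFCSD, NR4A3 by 1.97 and 1.97, KLRK1 by 1.82 and 1.44, ARF6 by −2.32 and −2.34, TAP1 by −2.16 and −2.25 and HMOX2 by −2.05 and −1.85. SREBF1 changed by 0.24 and 1.23, ACSL1 by −0.21 and 1.12 and SNCG by −0.54 and 0.01, where the control had −1.63, −1.76 and −2.60. Of these genes LY96, ARF6 and HMOX2 passed the threshold on both diets, and NR4A3, KLRK1 and SREBF1 on HFCSD only. TAP1, ACSL1 and SNCG passed it on neither. Of the control rises from 10 to 27 weeks that could be tested on HFCD, 1798 of 1832 went up there too (98.1%), and of the falls 1411 of 1583 went down (89.1%); on HFCSD these were 1326 of 1519 (87.3%) and 1163 of 1558 (74.6%). Of all probes tested on each diet, 51% went up and 49% down on HFCD and 46.4% and 53.6% on HFCSD. limma called 567 probes on HFCD (3.01%) and 2140 on HFCSD (13%) between these weeks. Of the control rises 96 were called on HFCD as well, 5.03% of the control rises and 76.8% of those on HFCD, and of the falls 337, or 21% and 76.2%. On HFCSD 364 rises were shared, 19.1% and 34.7% of the lists, and 483 falls, 30.1% and 44.3%.

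From 10 to 19 weeks, where limma called 754 probes on HFCD (4.25%) and 1059 on HFCSD (6.17%), the control rises went the same way in 86.6% on HFCD and 95.4% on HFCSD, and the falls in 97.8% and 93.8%. Among all probes tested in this step 42.2% went up and 57.8% down on HFCD and 49.5% and 50.5% on HFCSD. In the later step the values on the diets lay further apart. Of the control falls 252 of 259 went down on HFCD (97.3%), but 13 of 256 on HFCSD (5.08%), where their median change was 0.95 against −1.69 in the control; of all probes tested 44.8% went down on HFCD and 59.6% on HFCSD. Of the control rises 30 of 32 went up on HFCD (93.8%) and 9 of 29 on HFCSD (31%), where 55.2% and 40.4% of all probes did. limma called 0 probes on HFCD in this step (1246 at an unadjusted p under 0.05) and 905 on HFCSD (5.38%).

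The difference between diets in the change with time was itself tested. From 10 to 27 weeks limma called 0 of 19141 probes for HFCD against control (521 at an unadjusted p under 0.05, lowest adjusted p 0.955) and 0 of 17896 for HFCSD (2664, lowest 0.13). From 19 to 27 weeks, a test added after the data had been seen, it called 0 of 18439 for HFCD (577, lowest 0.997) and 0 of 17971 for HFCSD (4913, lowest 0.0544). The last count depended on single arrays and on the arrays entered: it was 2006 without HFCD 19 weeks replicate 1, 210 without HFCSD 27 weeks replicate 3, 1456 with only the 4 groups compared and 1464 with replicate number as a block. It was 7 without control 10 weeks replicate 1, 5 without HFCD 10 weeks replicate 2, 4 without HFCD 19 weeks replicate 2 or 4, 3 without HFCSD 19 weeks replicate 3, 2 without control 19 weeks replicate 1 or control 27 weeks replicate 1 or 4, and 1 without HFCSD 27 weeks replicate 2. For 10 to 27 weeks the HFCSD count was 3 without control 10 weeks replicate 1, 1 without HFCD 19 weeks replicate 1 or 2, control 27 weeks replicate 4 or HFCSD 27 weeks replicate 2 or 3, and 261 with only the 4 groups compared; the HFCD count was 1 without control 27 weeks replicate 4. At 19 weeks diet and scan day differ together except for 1 control array, and their parts were not tested.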

How the data were processed

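Signal intensities were deposited as Agilent Feature Extraction output for each array; per the file headers, the software (version 10.5.1.1, where the submitters' notes name 9.5.3.1) had subtracted the background and detrended each array, and nothing had been done between arrays. The authors' table for the series, linear intensities quantile normalized over the arrays, was used only as an alternative. The processed signal was taken to log2 and quantile normalized over all 45 arrays on 43803 non-control spots, spots that carried an outlier mark of the software were dropped, and spots of the same probe were averaged. Probes were tested between weeks where all usable arrays of 1 week or of both had them well above background. A probe that entered by 1 week alone was thereby selected for a high level in that week. Linear models with moderated statistics (limma 3.58.1 in R 4.3.3) held the 12 arrays in 1 fit, and p-values were adjusted by Benjamini-Hochberg over the probes tested, with a threshold of 0.05. A fit of 9 groups on the 33 whole blood arrays gave the differences between diets. Single values per array were compared by exact permutation tests, also in R. Tables were built with the data.table package (version 1.17.8) and, in Python 3.11.15, with numpy 2.4.6 and pandas 2.3.3, and figures with matplotlib 3.10.9. The tests were tried on simulated data.

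Symbols came from RefSeq accessions (2002 probes), descriptions (18) and the annotation's gene name column (804, and 119 whose name is not in the reference). Names were corrected for some probes after their values were seen. Genes were named by rule: per comparison the 10 largest rises and 10 largest falls among probes with 1 symbol whose adjusted p was under 0.05 and whose weeks did not overlap. Where fewer than 5 qualified, the largest differences at an unadjusted p under 0.01 without overlap filled the list up to 5. Each of the 27 gene lists also gave its 3 measured members with the largest difference from 10 to 27 weeks, and further members where a count is described. Results of some genes are not reported here, though counts and medians of the lists include them. A gene with several probes is given by the probe with the highest mean level. The members and lists were chosen with earlier results of these data known. Alternatives covered normalization, background, filter, block, arrays in the fit, test, covariate and each array left out. The removal of the GC shift, the fit without both dimmest arrays and the diet test from 19 to 27 weeks were added after these data were seen.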

Additional observations from a re-analysis of the deposited data

Results flagged for a closer look

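Among 183 groups of 4 arrays, 174 of them levels of named genes or probes within a week, 18 held 1 array whose gap to the nearest other array exceeded the 95% critical value of Dixon's ratio of gap to range. Chance gives about 1 in 20 such groups. At 10 weeks these were replicate 1 for probe A_72_P262522 (3.1 on the log2 scale), replicate 2 for DNASE2 (7.16) and SREBF1 (12.22), and replicate 3 for P2RY1 (7.86). At 19 weeks replicate 1 stood apart in the net signal of the negative control spots (24.6), in its mean correlation with its own week (0.934) and in the levels of probe A_72_P297179 (1.42), GPI (3.42) and HMOX2 (5.74). In the same week replicate 2 stood apart for GRK7 (9.52) and VNN1 (12.8), and replicate 4 for DEFB1 (10.24). At 27 weeks replicate 1 stood apart for SLPI (10.77), replicate 3 for ACSL1 (7.85), MYC (10.34) and probe A_72_P178336 (5.32), and replicate 4 for SREBF1 (10.76) and UBE2D1 (6.14).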

How the results depend on the processing

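With a random block for scan day, 2, 0 and 2 probes passed the test from 10 to 19, 19 to 27 and 10 to 27 weeks (limma; 2372, 1190 and 3082 at an unadjusted p under 0.05), and 4 passed across the weeks (2763 unadjusted). The estimate for this block rests on replicate 1 at 19 weeks, the only array scanned apart from its week, so it cannot measure the part of scan day. Without a filter on dim probes the counts were 912 (10 to 19 weeks) and 119 (19 to 27 weeks). A t-test as in the methods with adjusted p-values gave 705, 5 and 1274 probes for the 3 steps, and its unadjusted form with a fold threshold gave 675 from 19 to 27 weeks. Fitting only the arrays of 19 and 27 weeks gave 194, and all 33 blood arrays gave 2. With each array's share of bright spots as a covariate the counts were 2108 from 10 to 27 weeks and 1980 across the weeks. Leaving out both dimmest arrays, chosen after the data were seen, gave 636 from 19 to 27 weeks. Leaving out 1 array at a time gave 476 to 2065 (10 to 19 weeks), 0 to 657 (19 to 27 weeks), 1885 to 4246 (10 to 27 weeks) and 1635 to 3805 (across the weeks). The other alternatives, slide as a block, normalization over the 12 arrays, normexp background, the series table, the weaker presence flag, the strictest filter and removal of the GC shift among them, stayed within 1.5 times of the counts reported.

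Between diets, the difference in change from 10 to 27 weeks was called for 1 probe under the weaker flag and 1 without a filter for HFCD, and for 6, 6 and, with only the 4 groups compared, 261 probes for HFCSD. For HFCSD the step from 19 to 27 weeks gave 2 probes with the series table, 32 under the weaker flag, 15 without a filter, 1456 with only the 4 groups and 1464 with a block for the replicate number. With 1 array left out, these ranged from 0 to 1 (HFCD) and 0 to 3 (HFCSD) for 10 to 27 weeks, and from 0 to 0 (HFCD) and 0 to 2006 (HFCSD) for 19 to 27 weeks. The F for the share of spots ranged from 0.591 to 3.83, and the difference in correlation within and between weeks from 0.202 to 0.284.

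From 10 to 27 weeks, 10 named genes changed sign under some alternative. MS4A2 was at -0.10 with normexp. With the share of spots as a covariate SLA-DRB1 was at -0.22, CAT at 0.15 and FAM210B at -0.06. With the GC shift removed SLA-DRB1 was at -0.08, FAM210B at -0.22, CD72 at 0.05, FCN1 at 0.08, PSMD4 at 0.02, PSMB10 at 0.21, CCR10 at 0.15 and RBP4 at 0.06. Without both dimmest arrays CD72 was at 0.08. With 1 array left out, FAM210B lay between -0.07 and 0.14 and SLA-DRB1 between -0.06 and 0.23, against 0.06 and 0.07 with all arrays. The cause of these changes was not tested.

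Replicate numbers were checked as a possible pairing over 14100 probes. Of 12 same-numbered pairs of arrays, 5 had a correlation of deviations over 0.1 (-0.256 to 0.432). The single highest correlation with an array of another week was with the own number for 7 of 12 arrays, and for 1 of 12 the own number came first in both other weeks. No pairing was used, since not every same-numbered pair was over 0.1. A block for the replicate number gave 1549, 264, 3275 and 2741 probes for the 3 steps and across the weeks, and moved none of these counts by over 1.5 times. The count for the difference between HFCSD and control in the later step moved by more with this block, as given above. Scaling to the 75th percentile put the median of all probes from 10 to 27 weeks at 0.14, against 0.08. Signal over background limits dim genes, whose folds are lower bounds under the main processing. Some changes from 10 to 27 weeks were smaller over the alternative settings, among them CGA at 0.79, CLC-2 at 0.33 and IRF3 at −0.95.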
